A study of Sus scrofa with 4 samples.

Results

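The 5 genes described here are adipogenic regulators and fat cell genes of pig longissimus dorsi (LD) muscle, namely PPARG, CEBPD, KLF5, G0S2 and APOE. They were chosen by name and identifier, out of 22658 features in the deposited files, to ask whether their transcripts follow the rise of intramuscular fat (IMF) with age in Laiwu pigs. The 12 animals were castrated male Laiwu pigs of wild type genotype, reared alike, in groups of 3 labelled 60, 120, 240 and 400 d. Each pig gave 1 LD muscle library of total RNA, so the libraries are separate animals and each comparison between ages is a comparison between different pigs. Laiwu is an indigenous Chinese breed known for fat within its muscle. IMF content itself was not in the files analysed here, so only the order of the ages could stand for it.

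Fat cells within muscle form from precursor cells that lie between the muscle fibres. During adipogenesis CEBPD and KLF5 act early and help to switch on PPARG, the nuclear receptor that drives and maintains the fat cell programme. G0S2 is a target of PPARG that inhibits adipose triglyceride lipase and so slows the release of fatty acids, and APOE is an apolipoprotein of lipid transport made by fat cells, macrophages and other cells. LD muscle RNA is mostly RNA of muscle fibres, so transcripts of fat cells and their precursors are a small share of it. In whole muscle, fewer cells of a type and less RNA per cell cannot be told apart.

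The ages need a statement before any result. The labelled ages were checked against a list in which the study gives mean FPKM values of genes per age. FPKM is the fragment number of a gene adjusted for transcript length and sequencing depth. The values listed at 60, 120, 240 and 400 d matched the libraries labelled 400, 240, 60 and 120 d, with a median absolute log2 difference of 0.0194 to 0.0196. For every other pairing of listed and labelled ages this median was between 0.475 and 1.52. The study also has qRT-PCR of CEBPA, CEBPD, MSTN, PDK4, PPARG and SCD, which it reports as strongly correlated with its sequencing values. Whether those qRT-PCR values go with the labels or with the list was not tested. The qRT-PCR of FASN in the study is not used here either. In the other information that was compared, the study points both ways. Its read totals per library go with the labelled ages, since they vary with the summed counts of the libraries so labelled and not with those of the listed ages. Its separate qRT-PCR of EGR1 gives a direction between 120 and 240 d that goes with the list, since EGR1 had means of 43.9 FPKM in the libraries labelled 120 d and 11.9 FPKM in those labelled 240 d. The labelled ages are used below, and the trends of the 5 genes, and those of some genes of the lists, are also given with the ages of the study's list, called the listed ages. Libraries are called by their labelled age and their number, such as 60 d library 1.

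Counts summed to 9713813 in the shallowest and 13325327 in the deepest library (median 11201318). A floor of 3 counts corresponded to 0.225 to 0.309 CPM (counts scaled to a common library size), a limit that covers counting error only. Of the markers fixed for muscle fibres, MYL1 was between 6510 and 18200 FPKM and DES between 2000 and 4560 FPKM. ACTA1, the actin of skeletal muscle fibres, was listed at 0 in 7 of the 12 libraries and at 33100 FPKM or more in the other libraries, so its value is not used as a measure of fibres. The fat cell markers found under their own symbols were PLIN1, CIDEC, CFD and LIPE, and the summed FPKM of the fat cell markers was between 58.7 and 315. ADIPOQ and FABP4 were not analysed here, and LEP, named through the study's lists, had a mean of 0.428 FPKM and a count of 0 in 2 libraries.

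The genes spanned a wide range of levels. Mean FPKM over the 12 libraries was 83.8 for CEBPD, 64.0 for APOE, 24.7 for G0S2, 4.49 for KLF5 and 2.68 for PPARG. In this order they stood above 96.1%, 94.9%, 88.6%, 64.1% and 54.2% of the 18747 features with an FPKM above 0 in any library. All varied more between pigs of 1 age than most genes did. The within-age SD of log2 CPM was 0.693 for PPARG, 0.938 for CEBPD, 1.03 for APOE, 1.46 for G0S2 and 1.56 for KLF5, against a median of 0.361 over the 13314 features tested across the ages. Differences between pigs of the same age made up 58.6% of the total sum of squares of log2 CPM for PPARG, 64.0% for G0S2, 66.7% for APOE, 69.5% for CEBPD and 72.5% for KLF5. With 3 pigs per age, part of the remainder arises without any age difference, so it is not the share due to age.

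**Figure D1:**
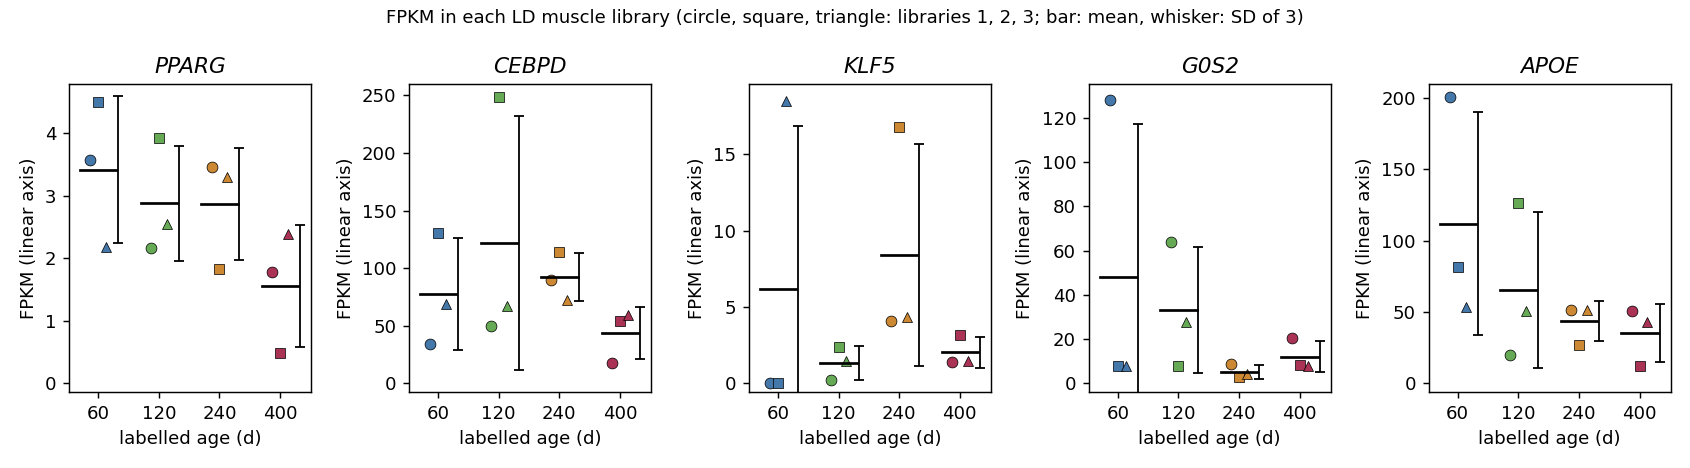
FPKM (y axis, linear) of each gene in each of the 12 LD muscle libraries against labelled age in days (x axis), with the mean as a bar and the SD of 3 libraries as a whisker, drawn only above 0. Single libraries stand far above the others of their age, such as 128 FPKM for G0S2 in 60 d library 1 and 248 FPKM for CEBPD in 120 d library 2.

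PPARG (ENSSSCG00000011579, Sscrofa10.2 chr13:75515701-75650250, plus strand) is the central regulator of fat cell differentiation. In libraries 1, 2 and 3 it measured 3.58, 4.50 and 2.18 FPKM at 60 d and 2.16, 3.93 and 2.55 FPKM at 120 d. It measured 3.46, 1.83 and 3.30 FPKM at 240 d and 1.79, 0.480 and 2.40 FPKM at 400 d. The means were 3.42 ± 1.17, 2.88 ± 0.928, 2.86 ± 0.895 and 1.56 ± 0.979 FPKM in the order of the ages (SD, n = 3). The ages overlapped throughout, and the lowest value, in 400 d library 2, rested on 10 counts. Between neighbouring ages the fitted log2 change was -0.24 ± 0.35 from 60 to 120 d, -0.01 ± 0.33 from 120 to 240 d and -0.86 ± 0.51 from 240 to 400 d (SE). The greatest difference between age means, from 60 to 400 d, was -1.08 ± 0.53 on the log2 scale (adjusted p = 0.185, edgeR). No change of PPARG was thus called, and its fitted values did not increase between any labelled ages. From 60 to 400 d the test called 0% of all features, so the lack of a call does not show that PPARG was unchanged.

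CEBPD (ENSSSCG00000006276, chr4:87369054-87370589, plus strand) encodes C/EBP delta, a transcription factor induced early in adipogenesis and by glucocorticoids and inflammation. It measured 34.1, 130 and 69.2 FPKM at 60 d and 49.6, 248 and 67.1 FPKM at 120 d. It measured 89.9, 114 and 72.4 FPKM at 240 d and 17.8, 54.0 and 58.9 FPKM at 400 d. The 120 d libraries held the highest value of all and the 400 d libraries the lowest. The means were 77.8 ± 48.6, 122 ± 110, 92.2 ± 21.1 and 43.6 ± 22.4 FPKM in the order of the ages (SD, n = 3). The 120 d library 2 alone held 26.5% of the CEBPD counts of all libraries, and without it the change from 60 to 120 d turned from 0.64 ± 0.67 to -0.42 on the log2 scale. All 240 d values lay above all 400 d values, with a log2 change of -1.08 ± 0.40 (adjusted p = 0.358, edgeR).

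KLF5 (ENSSSCG00000028760, chr11:49869696-49870148, plus strand) is a zinc finger factor of early adipogenesis. The feature that carries its name is only 453 bases long, and both KLF5 and CEBPD were named here through the study's lists, since the present reference table gives these symbols to other identifiers. KLF5 measured 0, 0.0191 and 18.5 FPKM at 60 d, from 0, 1 and 54 counts, and 0.183, 2.40 and 1.47 FPKM at 120 d, from 1, 9 and 5 counts. It measured 4.06, 16.8 and 4.37 FPKM at 240 d, from 13, 54 and 17 counts, and 1.41, 3.18 and 1.45 FPKM at 400 d, from 6, 10 and 6 counts. A count of 0 in 60 d library 1 allows up to 0.307 CPM. Libraries of 60 d thus held both the lowest and the highest KLF5 values, and 60 d library 3 held 30.7% of all its counts. The means were 6.17 ± 10.7, 1.35 ± 1.12, 8.41 ± 7.27 and 2.02 ± 1.01 FPKM (SD, n = 3).

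The 240 d libraries were all above the 120 d libraries and all above the 400 d libraries for KLF5. The log2 change was 2.43 ± 0.78 from 120 to 240 d (adjusted p = 0.0884) and -1.98 ± 0.66 from 240 to 400 d (adjusted p = 0.339, edgeR). From 60 to 240 d it was 0.44 ± 1.28, and without 60 d library 3 it was 5.48. From 120 to 400 d KLF5 was not tested, because its mean was below 10 counts at both ages. No age difference of KLF5 was thus called, and most of its values rest on few counts.

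G0S2 (ENSSSCG00000015617, chr9:146493481-146494458, plus strand) had a sharp contrast between pigs of 1 age. It measured 128, 7.87 and 7.99 FPKM at 60 d and 64.1, 7.95 and 27.8 FPKM at 120 d. It measured 8.72, 2.63 and 4.35 FPKM at 240 d and 20.4, 8.32 and 7.60 FPKM at 400 d. The highest and lowest library of 60 d differed 16.3-fold, and 60 d library 1 alone held 37.1% of the counts of this gene. The means were 48.0 ± 69.4, 33.3 ± 28.5, 5.23 ± 3.14 and 12.1 ± 7.18 FPKM (SD, n = 3). The log2 change from 120 to 240 d was -2.68 ± 0.73, with an adjusted p of 0.0656 in edgeR and 0.00101 in DESeq2, so that only the second tool called it. From 60 to 240 d the change was -3.14 ± 1.10 (adjusted p = 0.128), and without 60 d library 1 it was -0.57. From 60 to 400 d it was -1.89 ± 1.04, and without that library it turned to 0.67.

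APOE (ENSSSCG00000003088, chr6:47268902-47272198, plus strand) measured 200.5, 81.2 and 53.6 FPKM at 60 d and 19.6, 126 and 51.0 FPKM at 120 d. It measured 51.6, 27.1 and 51.6 FPKM at 240 d and 50.6, 11.9 and 43.1 FPKM at 400 d. The 60 d libraries were all above the 240 d and the 400 d libraries, while those of 120 d held both low and high values. The means were 112 ± 78.1, 65.5 ± 54.7, 43.4 ± 14.1 and 35.2 ± 20.5 FPKM (SD, n = 3). The log2 change was -1.35 ± 0.49 from 60 to 240 d (adjusted p = 0.139) and -1.63 ± 0.61 from 60 to 400 d (adjusted p = 0.105, edgeR). Between neighbouring ages it was -0.77 ± 0.68, -0.59 ± 0.58 and -0.30 ± 0.49.

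Over pairs of ages, no gene of the 5 was called by edgeR at a false discovery rate (FDR) of 0.01 with an absolute log2 change of at least 1. This was 0 of 5 from 60 to 120 d, where 0% of all features tested were called, and 0 of 5 from 120 to 240 d, where 0.0154% were called. It was 0 of 5 from 240 to 400 d against 0%, 0 of 5 from 60 to 240 d against 0.00774%, 0 of 4 from 120 to 400 d against 0.0154% and 0 of 5 from 60 to 400 d against 0%. The pair tests thus called almost nothing anywhere in the transcriptome, and 0 is the background level. At an unadjusted p under 0.05 there were 0, 2, 3, 2, 0 and 1 of the genes in these 6 comparisons, in the same order, and 7.49%, 31.1%, 12.3%, 26.3%, 36.0% and 34.5% of all features. DESeq2 called 1 of the genes, G0S2 from 120 to 240 d, where it called 5.43% of all features. In the other pairs it called 0 of them, against 0.131%, 0.474%, 4.4%, 8.05% and 10.1% of all features in the order above. DESeq2 gave no adjusted p for KLF5 from 60 to 120 d, nor for G0S2 from 60 to 240 d and from 60 to 400 d. These were counted as not called without having been assessed.

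Libraries of 2 ages did not overlap in FPKM for few of the genes. From 60 to 120 d this held for 0 of 5, against 11.9% of all features tested, and from 120 to 240 d for KLF5, higher at 240 d, against 35.4%. From 240 to 400 d it held for CEBPD and KLF5, both lower at 400 d, against 18.2%. From 60 to 240 d and from 60 to 400 d it held for APOE alone, lower at the later age, against 32.1% and 39.6%, and from 120 to 400 d for 0 of 5 against 40.8%. With 3 against 3 libraries the smallest p of an exact permutation test (two-sided) is 0.1, so such a test cannot pass a threshold of 0.05.

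The trend over the 4 ages used all libraries and a linear term in the order of the ages. Its log2 change over the 3 steps from 60 to 400 d was -0.97 ± 0.46 for PPARG (adjusted p = 0.125), -0.89 ± 0.72 for CEBPD (0.363) and -0.56 ± 1.31 for KLF5 (0.761). It was -2.33 ± 0.98 for G0S2 (0.0861) and -1.67 ± 0.59 for APOE (0.0461, all edgeR). None was called, against 9.11% of all features, and the median of the 5 was -0.97 against -0.05 over all features. At an FDR of 0.05 APOE alone was called, as lower with age, where 17.5% of all features were called. At an unadjusted p under 0.05 there were 2 genes, G0S2 and APOE, and DESeq2 called 0 where it called 14.4% of all features. With the labelled ages, then, none of these genes followed the order of the ages upward.

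A test of any difference among the 4 ages called 0 of 5 genes, against 3.93% of all features. Its adjusted p ranged from 0.126 for G0S2 to 0.328 for KLF5 (edgeR). Only G0S2 had an unadjusted p under 0.05, which 37.9% of all features had, and DESeq2 also called 0 of 5, against 20.2% of all features. The test thus gave no age pattern of another shape for these genes.

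With the ages of the study's list the trend turned upward for 4 genes. The log2 change over the 3 steps was then 0.83 for PPARG (adjusted p = 0.235), 1.22 for CEBPD (0.158), 2.15 for G0S2 (0.169) and 1.33 for APOE (0.208), while KLF5 stayed at -0.58 (0.813, edgeR). None was called, against 2.85% of all features. The direction of these genes with age therefore rests on which ages the libraries have, and under neither assignment did a gene pass the test. All 5 genes appear in lists that the study made with these same samples, so their directions in those lists are not independent evidence. KLF5 is also named there as a regulator predicted from its target genes. In its main text the study ranks G0S2 among the genes most raised over its interval of fastest fat deposition. Over that interval, from 120 to 240 d, the log2 change of G0S2 was -2.68 with the labelled ages and 3.14 with the listed ages. Neither change was called by edgeR. The direction that the study reports for G0S2 is thus that of the listed ages and the reverse of that with the labelled ages. For PPARG and CEBPD the study also has qRT-PCR, which it reports as strongly correlated with its sequencing values. Those qRT-PCR values per age were not analysed here.

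**Figure D2:**
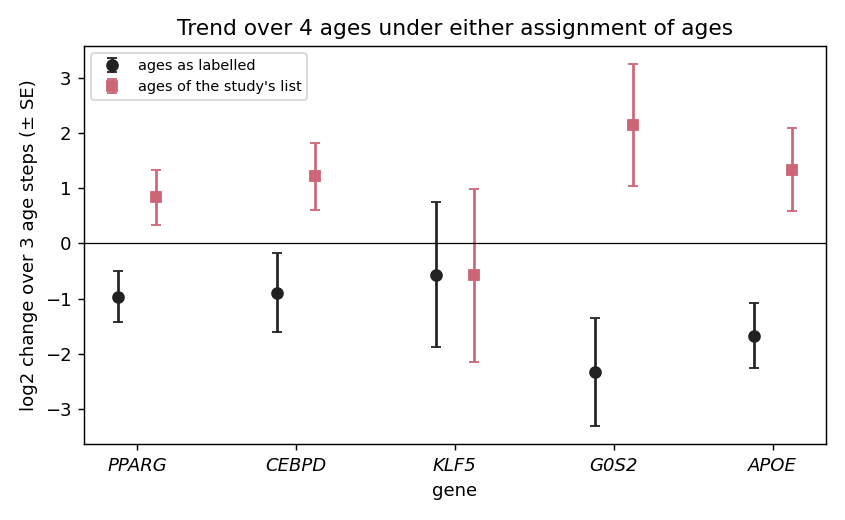
Log2 change over 3 age steps with its SE (y axis) for each gene (x axis), with the ages as labelled (circles) and the ages of the study's list (squares). PPARG, CEBPD, G0S2 and APOE lie below 0 with the labelled ages and above 0 with the other ages, and KLF5 lies below 0 with both.

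The genes did not vary together as 1 group across the libraries. Levels as log2 CPM (edgeR, prior count 2) were correlated over the 12 libraries for 10 pairs of genes, and each gene was correlated with the mean log2 CPM of 4 lists of cell markers, 30 relations in all. Among the pairs of genes, 2 had an adjusted permutation p under 0.05 for Pearson's r. PPARG and APOE were high in the same libraries, with r of 0.792 (adjusted permutation p = 0.038) and a Spearman's rho of 0.734 (adjusted permutation p = 0.172). Without the 2 libraries farthest from the PPARG median, 400 d library 2 and 60 d library 2, r was 0.686, and within ages it was 0.792. KLF5 and G0S2 were opposed, with r of -0.733 (adjusted permutation p = 0.038) and rho of -0.636 (adjusted permutation p = 0.172). Without 60 d library 3 and 240 d library 2 that r was -0.743, and within ages it was -0.628, although most KLF5 levels rest on few counts.

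CEBPD and G0S2 also tended to opposite levels, with r of -0.569 over all libraries (adjusted permutation p = 0.152, rho = -0.678 with an adjusted permutation p of 0.172). Within ages their r was -0.846, and without 400 d library 1 and 120 d library 2 it was -0.771. PPARG and CEBPD, by contrast, had r of 0.356 (adjusted permutation p = 0.411) and rho of 0.559 (adjusted permutation p = 0.201). None of the 30 relations had an adjusted p under 0.05 for Spearman's rho.

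**Figure D3:**
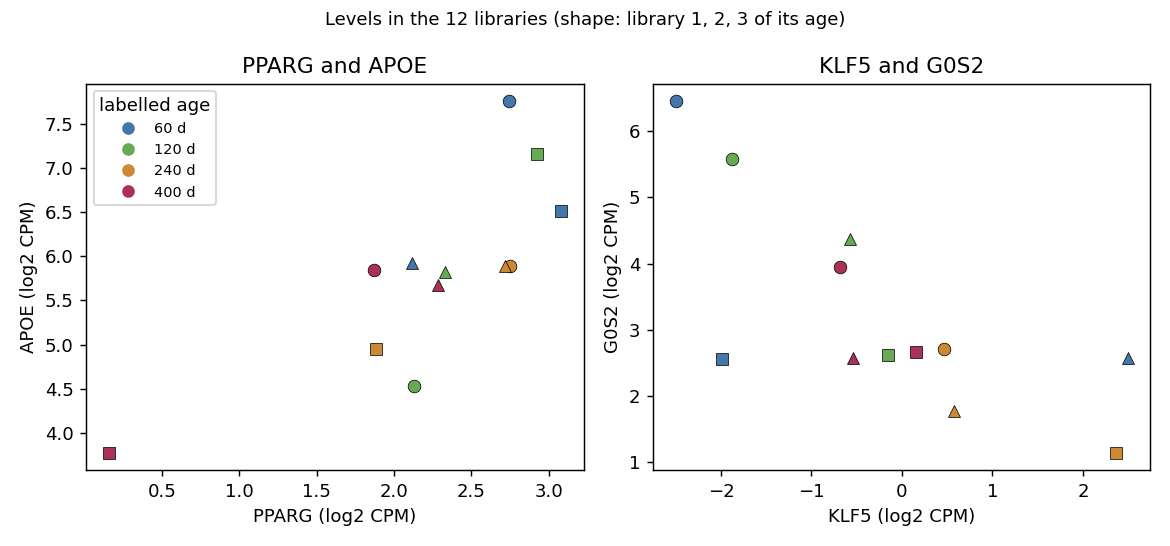
Levels as log2 CPM of APOE against PPARG (left) and of G0S2 against KLF5 (right) in the 12 libraries, coloured by labelled age. APOE was higher where PPARG was higher, with 400 d library 2 lowest in both, and G0S2 was highest in 60 d library 1, where KLF5 had 0 counts.

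Marker levels of several cell types moved with PPARG and APOE. Over the 12 libraries PPARG had r of 0.733 with the fat cell markers, 0.770 with the markers of fibroblasts and fibro-adipogenic cells, 0.686 with endothelial markers and 0.774 with macrophage markers (adjusted permutation p = 0.038, 0.038, 0.041 and 0.038). APOE had r of 0.777 with the fibroblast markers and 0.729 with the macrophage markers (adjusted permutation p = 0.038 and 0.0397), and 0.401 with the fat cell markers (adjusted permutation p = 0.366). For these 7 relations Spearman's coefficient was 0.608, 0.524, 0.448, 0.657, 0.594, 0.524 and 0.308, in the order given, with adjusted permutation p between 0.172 and 0.497. The 6 relations with an adjusted p under 0.05 were weaker without their most extreme libraries. Without the 2 libraries farthest from the marker median, 400 d library 2 always among them, their r fell to between 0.195 and 0.425. Leaving out the extremes narrows the range of marker levels, which by itself tends to lower r. Within ages, r of PPARG was 0.842 with the fat cell, 0.662 with the fibroblast, 0.493 with the endothelial and 0.788 with the macrophage markers. That of APOE was 0.815 with the fibroblast, 0.928 with the macrophage and 0.512 with the fat cell markers. These within-age values still include 400 d library 2, and no p was computed for them. The permutations shuffled libraries across ages, so a shared difference between ages also counts in the p given above.

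For fibroblasts, macrophages, endothelial cells and red blood cells, every 400 d library had a lower marker sum than every 60 d library. Between these ages 39.6% of all features tested did not overlap, in either direction. Under the listed ages the same libraries are of 60 and 240 d, so that these sums were then higher at the later age. For fat cells the sums overlapped between all ages. The summed FPKM of the 7 fibroblast markers found spanned 812 to 2570, 1110 to 1570, 550 to 817 and 240 to 559 in the order of the ages. That of the 6 macrophage markers ran from 84.4 to 177, 101 to 376, 47.9 to 70.7 and 14.3 to 42.7 at these ages, and that of the 5 endothelial markers from 81.1 to 175, 72.6 to 151, 64.6 to 101 and 39.2 to 74.0. The sum of the 5 fat cell markers, most of it CFD, ran from 104 to 315, 137 to 234, 102 to 167 and 58.7 to 147. The fat cell markers did not share 1 direction. In the trend with labelled ages CFD was at -1.06 and CIDEC at -0.435, but PLIN1 at 0.405, LIPE at 0.37 and LEP at 2.05, none of them called. The 3 red blood cell markers summed to 219 to 1180 at 60 d and 57.3 to 101 at 400 d. No marker found for fibroblasts, endothelial cells or macrophages was at 0 in any library. PDGFRA, CDH5, VWF, CD163 and AIF1 of these lists were not among the markers found. The part of these cell types in the levels of the 5 genes was not tested.

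For each gene the 5 features with the most similar levels over the 12 libraries were taken from the 6683 named features whose mean count reached 50. For PPARG these were SOD3 (r = 0.938), MPZL1 (0.929), RHOJ (0.924), ECM2 (0.911) and QSOX1 (0.910), where SOD3 is the extracellular superoxide dismutase and RHOJ a small GTPase of endothelial cells. For APOE they were CHRDL1 (0.924), CPXM1 (0.923), PHLDA3 (0.912), SERPING1 (0.897) and ATF6B (0.885), where SERPING1 is the C1 inhibitor of complement. For G0S2 they included RARG (0.936), a retinoic acid receptor, NIPSNAP3A (0.907), MSMO1 (0.889) and DCPS (0.889). For KLF5 they were DDX3X (0.922), HAPSTR1 (0.921), ABCE1 (0.907), DDX21 (0.905) and PRRC2C (0.904), and for CEBPD PPM1M (0.844), PI4K2A (0.812), CTSC (0.811), ETS2 (0.795) and MAGI3 (0.784). No feature stood among the nearest of more than 1 gene, and these r describe 12 libraries that share 4 ages.

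Other genes of the programme were taken from fixed lists, of whose 121 symbols 72 were found through the reference table and 14 only through the study's lists. Counts below are for the trend with labelled ages over the symbols of the reference table, against 9.11% of all features called and a median of -0.05. Of 8 adipogenic transcription factors tested, 0 were called, with a median log2 change of 0.10. KLF9, a factor induced by glucocorticoids, had means of 16.3 ± 8.63, 12.9 ± 5.09, 35.0 ± 6.95 and 36.5 ± 16.1 FPKM and a change of 1.45 (adjusted p = 0.0319, edgeR), and of -1.71 under the listed ages (adjusted p = 0.0189). STAT5A, with means from 50.2 to 60.8 FPKM, had a change of 0.30, and of -0.23 under the listed ages. CEBPA, a partner of PPARG in mature fat cells, stood at a mean of 5.72 FPKM with a change of -0.18 (adjusted p = 0.811), and of 0.11 under the listed ages.

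Of 5 inhibitors of adipogenesis tested, 2 fell with labelled age and 0 rose, with a median of -0.04. GATA2, which holds precursors back from the fat cell fate, measured 4.31, 4.21 and 3.34 FPKM at 60 d and 1.03, 1.65 and 1.77 FPKM at 400 d, a trend of -1.50 (adjusted p = 0.00228). KLF7 went from 2.24 ± 0.162 to 1.12 ± 0.411 FPKM between these ages, a trend of -1.13 (adjusted p = 0.00621, both edgeR). FOXO1, the most abundant of the list, had a trend of 0.22, and of -0.59 under the listed ages. Under the listed ages GATA2 had a change of 1.34 (adjusted p = 0.0233) and KLF7 of 1.11 (adjusted p = 0.0154), and neither was called.

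Of 9 fat cell effector genes tested, 1 rose and 0 fell, with a median of -0.15. Whether transcripts of this list, or of the lipid droplet and lipolysis list, came from fat cells or muscle fibres was not tested. ACSL1, which activates long chain fatty acids and is a PPAR target, measured 36.8, 46.8 and 44.1 FPKM at 60 d and 33.7, 52.5 and 43.6 FPKM at 120 d. It measured 179, 139 and 224 FPKM at 240 d and 99.6, 215 and 190 FPKM at 400 d, so that both later ages lay above both earlier ones, with a trend of 2.43 (adjusted p = 0.00235). GPD1, at means of 503 to 1000 FPKM, had a trend of -0.62 (adjusted p = 0.132) and CFD, the adipsin gene, of -1.06 (adjusted p = 0.0403), neither called. Under the listed ages ACSL1 was called in the other direction, at -2.42 (adjusted p = 0.00713, edgeR), while GPD1 was at 0.40 and CFD at 0.98, neither called.

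Of 10 lipid droplet and lipolysis genes tested, 1 rose and 0 fell, with a median of 0.01. PLIN4, a lipid droplet coat protein, had means of 16.0 ± 3.01, 25.6 ± 2.76, 35.5 ± 4.96 and 37.6 ± 12.3 FPKM and a trend of 1.26 (adjusted p = 0.00387). PLIN1, the coat protein of fat cell droplets, had means of 9.79 ± 9.65, 8.23 ± 3.89, 15.3 ± 4.52 and 10.1 ± 7.95 FPKM and a trend of 0.41 (adjusted p = 0.681). PNPLA2, the lipase that G0S2 inhibits, had means of 116, 111, 168 and 144 FPKM and a trend of 0.50 (adjusted p = 0.16). FITM1, the most abundant of the list, had means of 429, 329, 187 and 192 FPKM and a trend of -0.71 (adjusted p = 0.0142, edgeR), under the fold threshold. None of the 10 was called under the listed ages, where PLIN4 was at -0.79, PLIN1 at -0.60, PNPLA2 at -0.60 and FITM1 at 0.64.

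Of the lipoprotein and sterol transport genes, 3 are reported. SCARB1, a receptor for high density lipoprotein, fell with labelled age, with means of 12.0, 13.4, 5.85 and 5.71 FPKM and a trend of -1.28 (adjusted p = 0.00404, edgeR). APOD was called for a difference among the ages (adjusted p = 0.00798) with its highest mean, 76.8 ± 21.7 FPKM, at 240 d, and NR1H2 had a trend of -0.04, or 0.20 under the listed ages. Under the listed ages SCARB1 was called in the other direction, at 1.36 (adjusted p = 0.00517, edgeR).

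Of 11 immediate-early and stress genes tested, 0 rose and 1 fell, with a median of -2.14. IER3 fell from 23.9 ± 13.8 FPKM at 60 d to 1.76 ± 1.16 FPKM at 400 d, a trend of -4.46 (adjusted p = 0.00187, edgeR). FOS was at 726 FPKM in 60 d library 1, the library with the highest G0S2 and APOE, and at 1.66 FPKM in 400 d library 1, the library with the lowest CEBPD. ATF3 was highest, at 827 FPKM, in 120 d library 2, the library with the highest CEBPD. Other libraries went the other way. CEBPD was at only 34.1 FPKM in 60 d library 1, where FOS was highest. APOE was lowest, at 11.9 FPKM, in 400 d library 2, where FOS was at 266 FPKM. In 120 d library 1 ATF3 was at 499 FPKM and CEBPD at 49.6 FPKM. The part of these stress genes in the CEBPD, G0S2 and APOE levels was not tested. Under the listed ages IER3 and MYC were called upward, at 4.48 and 2.94 (adjusted p = 0.00517 and 0.00793).

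Among the marker lists, 2 of 5 fibroblast markers and 1 of 4 endothelial markers fell with labelled age, and 0 of 4 fat cell, 0 of 4 macrophage, 0 of 3 red blood cell and 0 of 3 muscle fibre markers were called. COL3A1 had means of 667, 655, 342 and 162 FPKM and a trend of -2.15 (adjusted p = 0.00642), COL6A3 a trend of -1.21 (adjusted p = 0.00324) and TIE1 a trend of -1.34 (adjusted p = 0.00323). COL1A1, named through the study's lists, had a trend of -3.49 (adjusted p = 0.00151, edgeR). In pairs of ages, the only gene of any list called was ACTA1 from 60 to 240 d, which is listed at 0 in the 60 d libraries. Under the listed ages COL3A1 was at 2.13, COL6A3 at 1.06, TIE1 at 1.17 and COL1A1 at 3.35 (adjusted p = 0.0149, 0.034, 0.0328 and 0.0203), none of them called. The macrophage marker C1QA, 1 of 4, was called upward there, at 2.88 (adjusted p = 0.00574), as were C1QB at 3.17 and C1QC at 2.84, both named through the study's lists (adjusted p = 0.00405 and 0.0052, edgeR).

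**Figure D4:**
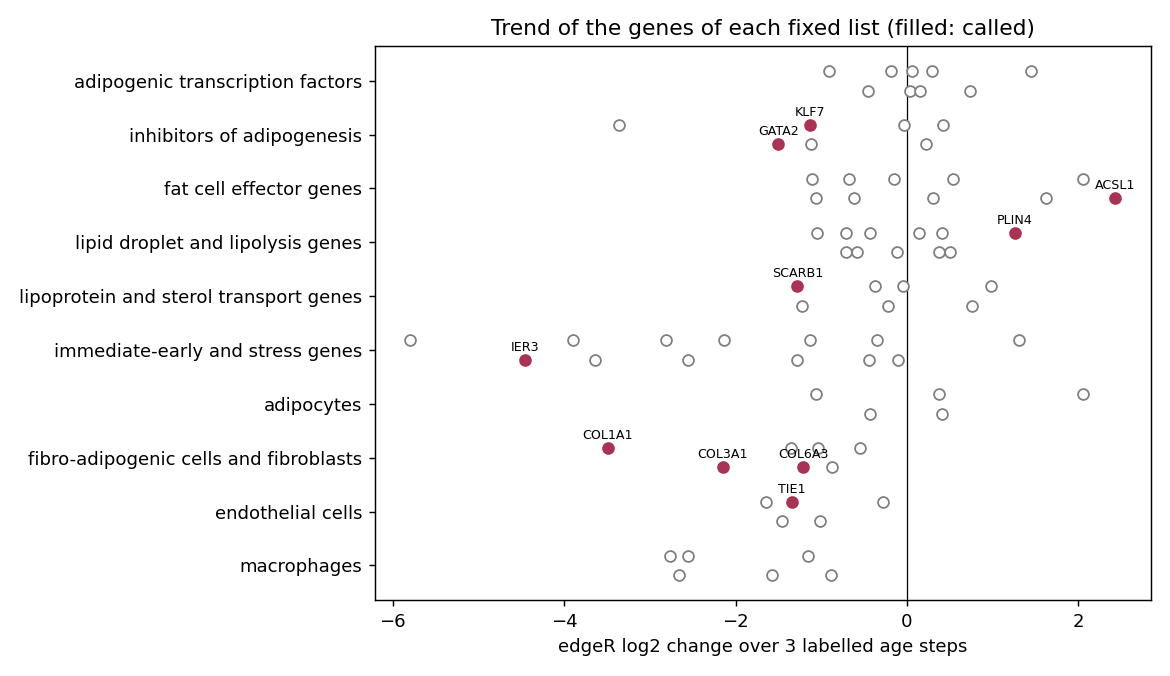
Log2 change over 3 labelled age steps (x axis) of the tested genes reported from the fixed lists (y axis), with filled points for genes called at an FDR of 0.01. ACSL1 at 2.43 and PLIN4 at 1.26 are the called genes above 0, and all other filled points, from KLF7 at -1.13 to IER3 at -4.46, lie below 0.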

How the data were processed

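The authors sequenced 12 LD muscle RNA samples as paired-end libraries and mapped the reads to Sscrofa10.2 with TopHat2; the submitters' processing notes name Bowtie 0.12.2, Cufflinks and, for a mouse build, mm8. The authors deposited a whole-number fragment count per gene, without normalization, and an FPKM value per library; their normalized counts and lengths were not used for tests. Genes were named from identifiers through a reference table (11472) or the study's lists (560). The members and lists were chosen with earlier results of these data known.

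Counts were tested with the quasi-likelihood F test of edgeR 4.0.16 in R 4.3.3 with TMM, over features whose mean count reached 10 in any age compared, with Benjamini-Hochberg adjustment over all of them. Each pair of ages was fitted on its own 6 libraries. A gene was called at an FDR of at most 0.01 and an absolute log2 change of at least 1. Errors of log2 changes are the change over the square root of F. Named list genes were those called and the 2 of highest mean FPKM per list; others named were chosen after their values were seen. Correlations used 100000 permutations of the 12 libraries without regard to age, two-sided, in Python 3.11.15 with numpy 2.4.6 and scipy 1.17.1. Alternatives were the ages of the study's list, DESeq2 1.42.0, its size factors, other count filters, an FDR of 0.05, 1 fit over all libraries, pseudocounts of 0.1 and 1 for FPKM, and leaving out each library. The edgeR fits were tested on simulated data. Promoter motifs and sequences were not analysed here, and some items of the lists are not reported here.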

Additional observations from a re-analysis of the deposited data

How the results depend on the processing

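None of the 5 genes was called in any of the 8 comparisons with DESeq2 size factors, without a count filter, with a mean of at least 50 counts or without any 1 library, nor in the 6 pairs of ages with all 12 libraries in 1 fit. The filter at 50 counts left KLF5 untested. DESeq2 called 1 gene, G0S2, from 120 to 240 d, and an FDR of 0.05 called 1, APOE, in the trend. The pseudocounts of 0.1 and 1 turned no direction. When all libraries shared 1 fit, the PPARG change from 120 to 240 d was 0.0009987. No paired analysis was possible because the pigs of each age are different animals and the labels give 1 sample per age, without replicate numbers.

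With the ages of the study's list, 24 changes took the other sign. PPARG was then at 0.86 from 60 to 120 d, 0.23 from 120 to 240 d, 1.08 from 60 to 240 d, 0.011 from 120 to 400 d, 0.87 from 60 to 400 d and 0.83 in the trend. CEBPD was at 0.64 from 240 to 400 d, 0.40 from 120 to 400 d, 1.48 from 60 to 400 d and 1.22 in the trend. KLF5 was at 1.98 from 60 to 120 d and -0.44 from 120 to 240 d. G0S2 was at 3.14 from 120 to 240 d, -0.48 from 240 to 400 d, 1.89 from 60 to 240 d, 2.68 from 120 to 400 d, 1.45 from 60 to 400 d and 2.15 in the trend. APOE was at 0.30 from 60 to 120 d, 1.35 from 120 to 240 d, 1.63 from 60 to 240 d, 0.59 from 120 to 400 d, 0.89 from 60 to 400 d and 1.33 in the trend.

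Leaving out 1 library turned 16 changes. Over these fits CEBPD lay between -0.42 and 1.23 from 60 to 120 d, -0.77 and 0.67 from 120 to 240 d (both turned without 120 d library 2). It lay between -0.093, without 60 d library 1, and 0.85 from 60 to 240 d. Without 60 d library 1 G0S2 turned both from 60 to 120 d, where it ran from -1.36 to 2.09, and from 60 to 400 d, where it ran from -2.53 to 0.67. KLF5 lay between -0.53 and 5.48 from 60 to 240 d, turned without 60 d library 1 or 2 or 240 d library 2. In the trend it lay between -1.18 and 2.74, turned without 60 d library 3. PPARG ran from -0.17 to 0.28 between 120 and 240 d (turned without 120 d or 240 d library 2) and from -0.46 to 0.0045 between 60 and 240 d (turned without 60 d or 240 d library 2). APOE turned without 120 d library 2 in the step from 120 to 240 d (-1.01 to 0.32) and from 120 to 400 d (-1.32 to 0.0078), and without 400 d library 2 in that from 240 to 400 d (-0.65 to 0.10). The lowest adjusted p over these fits was 0.0323, for APOE in the trend, which ran from -1.99 to -1.07.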
